A study of Bos taurus with 2 samples.

Results

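Muscle, red blood cells and white blood cells each have miRNAs that are used as their markers, and 10 of these were followed here in cow milk whey. They were taken by name from the 670 bovine miRNAs of a microarray: the muscle markers miR-1, miR-133a, miR-133b and miR-206, the erythroid markers miR-144, miR-451 and miR-486, and the leukocyte markers miR-150, miR-155 and miR-223. All 10 were on the array. Raw milk from Holstein cows had been skimmed, and whey prepared from it was centrifuged for 90 min at 4 °C. The labels call this ultracentrifugation and give 10000 g, a force low for that word, so which particles the pellet holds is uncertain. The pelleted material, which the labels call exosome (small vesicles released by cells), was compared with the whey supernatant left above it. In each fraction, RNA from 3 milk samples was combined in equal parts and 40 ng was labelled with the dye Cy3, so each fraction was measured on 1 array, with no replicate and no test. The ± values given are SDs over the spots of an array, so they hold technical spread and no spread between cows or milks.

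MicroRNAs are short RNAs that lower the output of messenger RNAs with a matching site, chiefly through the bases near their 5′ end, the seed. In mammals miR-1 and miR-206 share a seed and promote muscle differentiation, while miR-133a and miR-133b, transcribed with them, act on muscle proliferation and the muscle splicing machinery. miR-144 and miR-451 come from a single transcript of the red cell lineage, and miR-486 is abundant in red blood cells and in muscle. miR-150 is a miRNA of mature lymphocytes, miR-155 is induced when lymphocytes and macrophages are activated, and miR-223 belongs to neutrophils and their precursors. Milk carries leukocytes and shed epithelial cells of the udder, but muscle cells are not a usual part of it.

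Each marker was read by a pair of nested probes that differ by 1 base at the 3′ end, with 60 spots per miRNA. A probe is DNA complementary to its miRNA, and the longer probe of each is shown 5′ to 3′ because a base run within these sequences is taken up below. Capitals mark 4 guanines in a row.
bta-miR-1: atacatacttctttacattcc
bta-miR-133a: cagctggttgaaGGGGac
bta-miR-133b: tagctggttgaaGGGGacc
bta-miR-206: ccacacacttccttac
bta-miR-144: ctagtacatcatctatactgta
bta-miR-451: aaactcagtaatggtaacg
bta-miR-486: ctcGGGGcagctca
bta-miR-150: acactggtacaagggt
bta-miR-155: acccctatcacgattagc
bta-miR-223: tGGGGtatttgacaaactgac

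The array design places these probes in the genome build HGSC Btau_3.1. The order of start and end in that listing does not settle the strand, so none is given. miR-1 lies on chromosome 13 from 55460085 to 55460105 and on chromosome 24 from 35579281 to 35579301. miR-133a lies on the same chromosomes, from 55449843 to 55449860 on 13 and from 35582602 to 35582619 on 24, with 10224 and 3300 bases between the probes of these neighbours. The other muscle pair is on chromosome 23, miR-206 from 25079888 to 25079902 and miR-133b from 25083980 to 25083997, with 4077 bases between them. miR-144, on chromosome 19 from 20148085 to 20148105, is separated by 174 bases from miR-451, at 20147893 to 20147910. The remaining probes are on chromosome 27 from 38990884 to 38990896 (miR-486), 18 from 55905326 to 55905340 (miR-150), 1 from 10199637 to 10199653 (miR-155) and X from 56723573 to 56723592 (miR-223). For probes other than those of miR-1 and miR-133a the listed interval is 1 base shorter than the probe. All 10 markers matched the RefSeq gene table of another assembly, ARS-UCD2.0, to 12 miRNA genes, from which names and neighbours but no positions were taken. There MIR486 overlaps ANK1, a gene for a red cell membrane protein. MIR1-2 and MIR133A-2 overlap MIB1, MIR223 overlaps VSIG4, and MIR206 and MIR133B overlap the same long noncoding RNA.

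The scanner software flags a spot as well above background or not. Detection of a probe asked for this flag in 50% or more of its spots, and detection of a miRNA for 1 detected probe. None of the 10 markers was detected in exosome RNA, against 66 of 670 miRNAs (9.85%). On the supernatant array 4 of 10 were detected, against 85 of 670 (12.7%). These were miR-133a, miR-133b, miR-486 and miR-223, that is 2 of 4 muscle, 1 of 3 erythroid and 1 of 3 leukocyte markers, and every probe of the 4 was detected. The share of all miRNAs with every probe detected was 5.22% in exosome RNA and 11% in supernatant RNA. All 4 markers were thus detected in supernatant only, where 8.21% of all miRNAs fell, and no marker was detected in exosome only, where 5.37% fell. With 4 markers a count of this kind is coarse, and no test was made of it. The markers were chosen with earlier results of these data known, and miR-133a and miR-133b share most of their probe bases. These calls describe RNA in whey and do not count cells. Fewer cells of a type, less RNA per cell and a weaker response of a probe cannot be told apart here.

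The negative controls, probes designed to match no bovine miRNA, served as a reference for spots without a matching RNA. They are not the level of every such probe. Of the undetected miRNAs, 545 of 604 in exosome RNA and 533 of 585 in supernatant RNA read no higher than the control mean. The control spots read 4.67 ± 3.46 in exosome RNA (981 spots) and 4.41 ± 3.35 in supernatant RNA (976 spots), in intensity units after background subtraction. The 95th percentile of these spots, the threshold used here, was 10.5 in exosome RNA and 9.98 in supernatant RNA, and the highest spot read 15.0 and 15.1. The means of the 7 separate controls ran from 1.93 to 7.36 in exosome RNA and from 2.26 to 7.35 in supernatant RNA. None of the 10 markers had a mean above the threshold in exosome RNA (10.7% of all miRNAs did), and the same 4 had in supernatant RNA (13%). No spot of a marker was saturated.

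**Figure D1:**
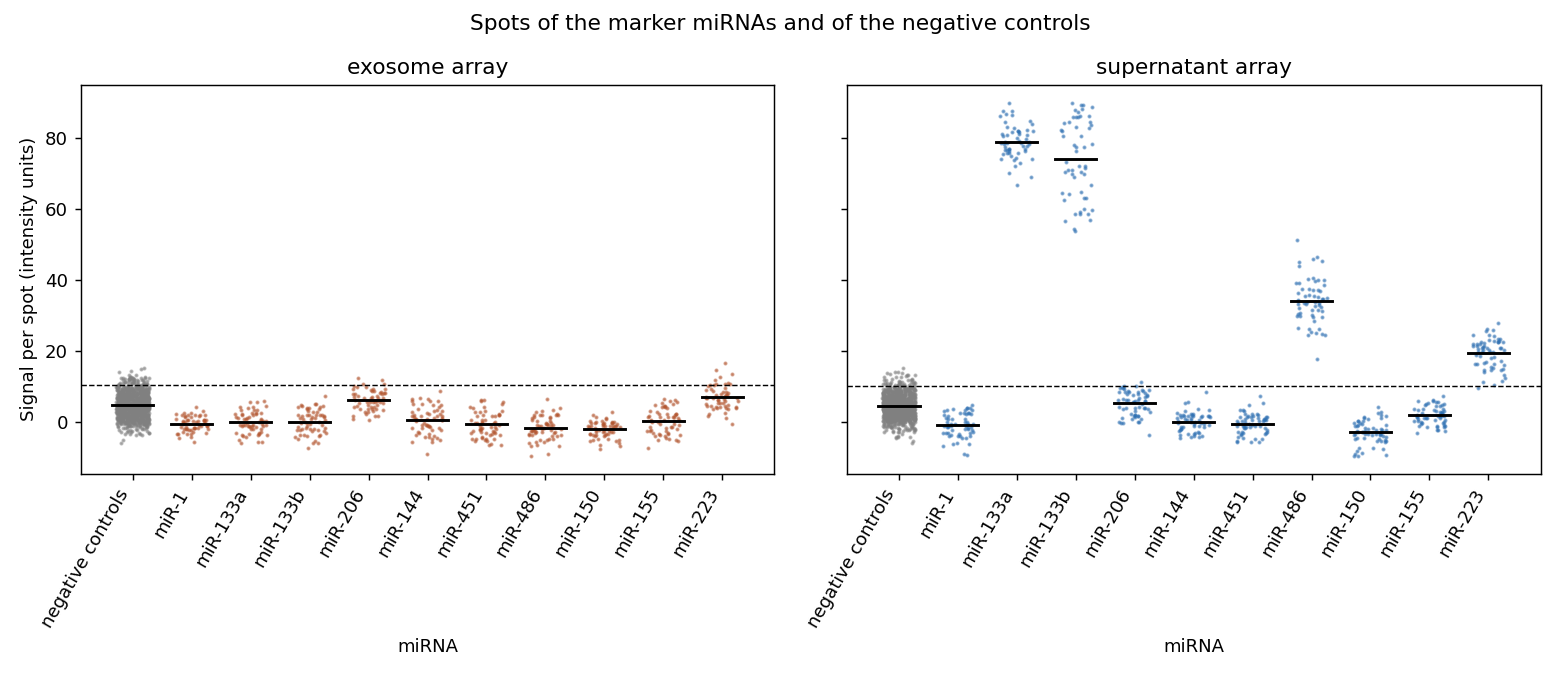
Signal of every spot of the negative controls and the 10 marker miRNAs (x axis), exosome array left and supernatant array right, in intensity units (y axis, linear). Black bars are means over spots and the dashed line is the 95th percentile of the negative control spots. In supernatant RNA miR-133a, miR-133b and miR-486 stand clear of the controls and miR-223 lies partly above them. All other readings on either array lie among or below the controls, except 1 exosome spot of miR-223 above the highest control spot.

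The muscle markers divided within each gene pair. miR-133a read -0.19 ± 3.01 in exosome RNA (60 spots, from -6.07 to 5.87) and 78.9 ± 4.75 in supernatant RNA (56 spots, from 66.6 to 89.7). All 56 supernatant spots lay above the highest negative control spot, while none of the 60 exosome spots reached the threshold. miR-133b read -0.022 ± 3.33 in exosome RNA (60 spots, from -7.30 to 7.24) and 74.8 ± 5.42 in supernatant RNA (55 spots, from 53.8 to 89.9), again with every supernatant spot above the controls. miR-1, whose genes neighbour those of miR-133a, read -0.59 ± 2.13 in exosome RNA (55 spots, highest 4.24) and -1.04 ± 3.04 in supernatant RNA (60 spots, highest 4.57). Its means lay below those of all 7 negative controls on both arrays. miR-206, the neighbour of miR-133b, read 6.12 ± 2.73 in exosome RNA (57 spots, highest 12.2) and 5.14 ± 3.43 in supernatant RNA (60 spots, highest 11.0). Both values fall inside the range of the separate negative controls, and 4 of its exosome spots and 2 of its supernatant spots passed the threshold.

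The signals of miR-133a and miR-133b are not independent. Their probes share a run of 17 bases, and over the 18 positions that the longer probes have in common they differ by C1T, counted from the 5′ end with the miR-133a base first. The array cannot tell which of the 2 RNAs was bound. The shorter and longer probes read 78.1 ± 4.97 and 79.6 ± 4.52 for miR-133a in supernatant RNA, a gap smaller than the spread between spots. For miR-133b they read 84.4 ± 3.72 and 65.3 ± 6.69, so the longer probe was dimmer by more than that spread. No other marker shared more than 9 bases in a row with a probe of another miRNA.

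The erythroid markers also divided. miR-486 read -1.79 ± 3.27 in exosome RNA (60 spots, highest 6.42) and 34.1 ± 6.20 in supernatant RNA (59 spots, from 17.6 to 51.1). All 59 supernatant spots passed the highest negative control spot and 58 carried the flag. Its probes, of 13 and 14 bases, read 35.4 ± 4.99 and 32.8 ± 7.21 there. miR-451, which is matured without Dicer by Argonaute and is among the most abundant red cell miRNAs, read -0.78 ± 3.40 in exosome RNA (59 spots) and -0.62 ± 2.87 in supernatant RNA (59 spots). Its cluster partner miR-144 read 0.47 ± 3.78 in exosome RNA (60 spots) and -0.060 ± 2.68 in supernatant RNA (55 spots). No spot of miR-451 or miR-144 reached the threshold on either array, so a signal of miR-486 was not accompanied by a detectable signal of the other red cell markers. The longer probes of miR-451 and miR-144 hold under 40% G or C. In that class 0 of 137 miRNAs without 4 guanines in a row were detected in supernatant RNA and 6 of 137 in exosome RNA (4.38%).

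Of the leukocyte markers, miR-223 alone was detected. It read 6.83 ± 3.28 in exosome RNA (55 spots, from -0.66 to 16.5) and 19.3 ± 4.23 in supernatant RNA (60 spots, from 9.60 to 27.9). On the supernatant array 37 of 60 spots (61.7%) were well above background, 59 passed the threshold and 49 passed the highest negative control spot. The exosome mean was inside the range of the separate negative controls, although 9 of 55 spots passed the threshold and 1 passed the highest control spot. The shorter and longer miR-223 probes read 5.99 ± 2.25 and 7.67 ± 4.05 in exosome RNA and 19.4 ± 4.62 and 19.2 ± 3.81 in supernatant RNA. The lowest signal of any detected probe in supernatant RNA was 18.8, so the miR-223 call lies close to the limit of detection. miR-150 read -2.20 ± 2.29 in exosome RNA (57 spots) and -3.02 ± 3.29 in supernatant RNA (60 spots), with 87.7% of its exosome spots and 80% of its supernatant spots below 0. miR-155 read 0.027 ± 3.11 in exosome RNA (59 spots) and 1.75 ± 2.43 in supernatant RNA (58 spots). Neither had a spot above the threshold, so miR-150 and miR-155 gave no detectable signal in either fraction.

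**Figure D2:**
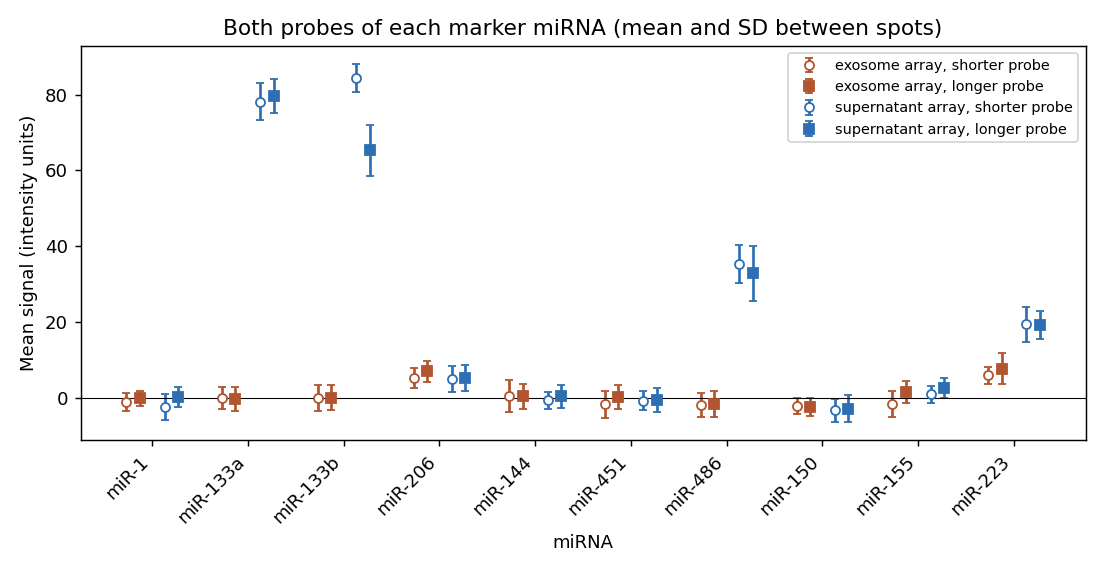
Mean signal of the shorter (open circle) and longer (filled square) probe of each marker miRNA (x axis) for exosome and supernatant RNA, in intensity units (y axis, linear); bars are SDs between spots. The probes of a miRNA lie together except for miR-133b in supernatant RNA, at 84.4 and 65.3.

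Most readings below the threshold were also below the mean of the negative control spots. On the exosome array 8 of 10 markers read below it, the exceptions being miR-206 and miR-223 (18.7% of all miRNAs read above that mean). On the supernatant array 5 of 10 read below it, and miR-206 was the 1 undetected marker above it (20.4% of all miRNAs were above). The 6 markers detected on neither array had medians of -0.28 in exosome RNA and -0.34 in supernatant RNA. Over all 549 miRNAs detected on neither, the medians were -0.82 and -1.26. The differences of the 6 markers, exosome minus supernatant, ran from -1.72 for miR-155 to 0.99 for miR-206, with no replicate array to set them against. The zero of the scale is set by the software's background surface and lies below the negative controls, so a reading near 0 is not a level of RNA.

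A looser flag of the software, for spots positive and significantly different from background, does not separate these readings from the controls. With at least 50% of such spots as the rule, miR-206 and miR-223 would count as detected in exosome RNA (26.3% of all miRNAs), and miR-206 would join the 4 in supernatant RNA (27%). The flag was set for 80.7% of the miR-206 spots in exosome RNA and 66.7% in supernatant RNA, and for 90.9% of the miR-223 spots in exosome RNA. It was also set for 63.2% of the negative control spots in exosome RNA and 57.7% in supernatant RNA. By the same rule 6 of 7 negative controls in exosome RNA and 5 of 7 in supernatant RNA would count as detected, whereas none did by the stricter flag.

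**Figure D3:**
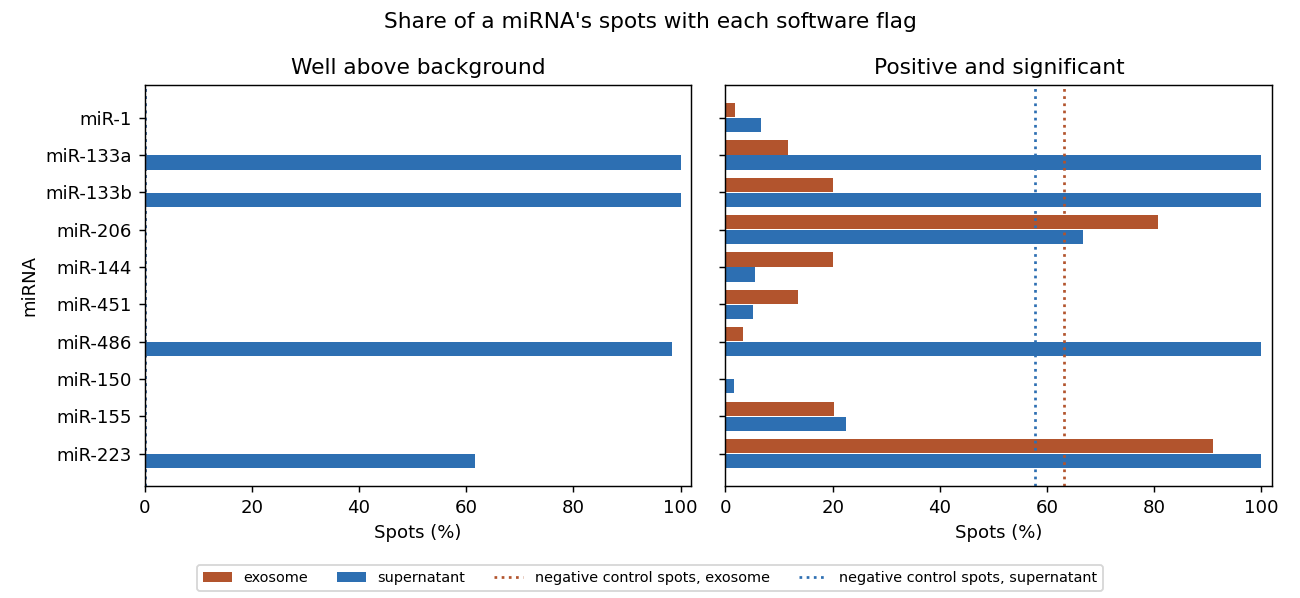
Share of the spots of each marker miRNA (y axis) flagged well above background (left) or positive and significant (right), in percent (x axis), for the exosome and supernatant arrays; dotted lines give the share among negative control spots. The stricter flag is at 0 for all negative control spots, while the looser one is set for 63.2% of them in exosome RNA and 57.7% in supernatant RNA.

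How far the 4 detected markers differed between the fractions can be given only as a limit, since the exosome side was not well above background. The limit sets the exosome side to the lowest signal of a detected probe there, 18.2. Without scaling between the arrays, miR-133a was at least 4.33-fold lower in exosome, miR-133b at least 4.10-fold, miR-486 at least 1.87-fold and miR-223 at least 1.06-fold. The limit reached 2-fold for 2 of the 4, and 4.78% of all miRNAs were detected in supernatant RNA only with such a limit. The supernatant array was far brighter among shared miRNAs: 53 probes were detected on both, and their 75th percentile was 473 in exosome and 15030 in supernatant. Dividing by it moves every log2 difference, exosome over supernatant, up by 4.99. The limits then became 2.88 for miR-133a, 2.95 for miR-133b, 4.08 for miR-486 and 4.91 for miR-223 on the log2 scale, which state no direction. With this scaling none of the 4 had a limit of 2-fold or more, and 0.448% of all miRNAs had. The 2 RNAs spiked in before labelling had log2 differences, exosome over supernatant, of 1.80 and 1.38, and the 2 spiked in at hybridisation of -0.059 and -0.10. Scaled to the labelling controls, the 4 markers were at least 13.0-fold, 12.3-fold, 5.63-fold and 3.18-fold lower in exosome, in the order above. The direction for all 4 thus rests on the choice of scaling, while the call of not well above background on the exosome array uses no scaling.

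The 4 detected markers had in common a feature that their choice did not use, and which was noticed after their values were seen. The probes of all 4 hold 4 guanines in a row, marked in capitals above, and the probes of the 6 undetected markers do not. miR-150 has at most 3 guanines in a row and miR-155 has 4 cytosines. A run of 4 guanines in a probe pairs with 4 cytosines in the miRNA. The motif searched was GGGG in the longest probe of each miRNA, on the probe strand only, where 21 of 670 miRNAs (4 of them these markers) hold it.

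All 21 miRNAs with GGGG in the probe were detected in supernatant RNA, against 64 of the 649 without it (9.86%). The other 17, with the markers left out, were likewise all detected. On the exosome array 5 of the 21 were detected (23.8%), against 61 of 649 (9.40%). By the longest run of guanines in the probe, 39 of 354 miRNAs with 0 or 1 were detected in supernatant RNA (11.0%), 16 of 229 with 2 (6.99%) and 9 of 66 with 3 (13.6%). Of the 55 miRNAs detected in supernatant RNA only, 16 hold the run (29.1%), and these are 76.2% of the 21. Other runs of 4 were detected there less completely: 20 of 34 miRNAs with 4 cytosines in the probe (58.8%), 3 of 27 with 4 thymines (11.1%) and 1 of 83 with 4 adenines (1.20%). The 21 miRNAs are few, miR-133a and miR-133b share most of their probe bases, and no test was run on a motif found in this way.

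GC content moved with the run and is given beside it. The longest probes of the detected markers had 61.1% (miR-133a), 57.9% (miR-133b), 71.4% (miR-486) and 42.9% (miR-223) G or C, and those of the 6 others 28.6% to 50%. In the class of 40% to under 50%, which holds miR-223, the 2 miRNAs with the run were both detected in supernatant RNA, against 6 of 172 without it (3.49%). In the class of 50% to under 60%, which holds miR-133b, the counts were 3 of 3 and 6 of 169 (3.55%). In the class of 60% to under 70%, with miR-133a, they were 5 of 5 and 19 of 108 (17.6%), and at 70% and over, with miR-486, 10 of 10 and 33 of 63 (52.4%). The undetected markers miR-1, miR-144 and miR-451 lie under 40%, where 0 of 137 miRNAs without the run were detected in supernatant RNA and 6 of 137 in exosome RNA (4.38%). The part of the run or of GC content in the marker signals was not tested.

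**Figure D4:**
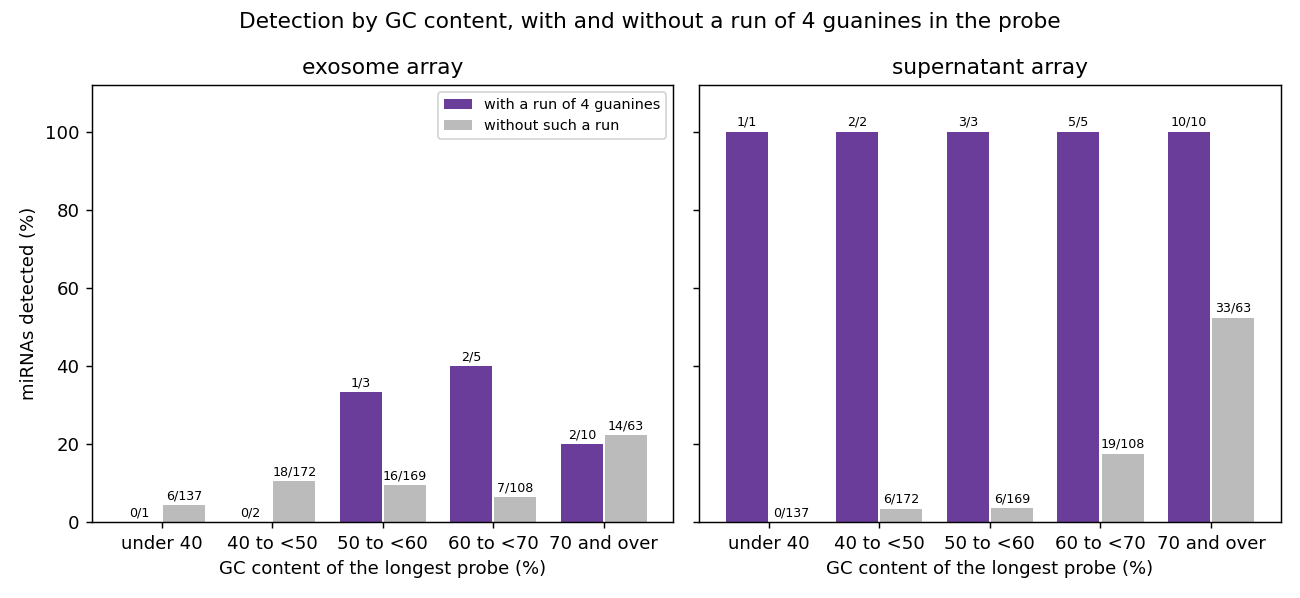
Share of miRNAs detected (y axis, percent) by GC content of the longest probe (x axis, percent), for miRNAs whose probe holds 4 guanines in a row and those without, exosome array left and supernatant array right; the labels over the bars are detected over all. On the supernatant array every class with the run is at 100%, down to 1 of 1 miRNA under 40%, while the classes without it run from 0 of 137 to 33 of 63.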

How the data were processed

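Whey exosome and supernatant RNA was hybridised to 1-colour Agilent bovine miRNA arrays, 1 per fraction. Agilent Feature Extraction 10.7.3.1 read the images, per the submitters' processing notes. The intensity values that the authors deposited were background-subtracted by that software and, per the file headers, not scaled between arrays. A deposited table of log2 values also exists, which equals log2 of the software's total signal over 0.1, to within 6.2e-06. It gives the 10 markers 0 in exosome RNA.

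Outlier spots were left out (1005 of 40200 miRNA spots in exosome RNA, 1032 in supernatant RNA). Spots were averaged per probe, then probes per miRNA. The SD is the root mean square of the probes' SDs. With 1 array per fraction no test was possible. The averaging and detection steps were run on simulated spots with known signals. Simulated miRNAs without RNA were given a mean below that of the negative controls. The run therefore cannot show how often such a probe is falsely detected. All 10 markers are named with values. Of the related lists, counts and up to 2 of the brightest detected miRNAs per array are named; miR-499 and miR-146a fall outside this rule. The members and lists were chosen with earlier results of these data known. Alternatives covered detection, threshold, scaling, normexp (limma 3.58.1, offset 50), probe summary and outlier spots. The tools were R 4.3.3 and Python 3.11.15 with matplotlib 3.10.9, pandas 2.3.3 and numpy 2.4.6.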

Additional observations from a re-analysis of the deposited data

How the results depend on the processing

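The counts of markers detected were 0 in exosome RNA and 4 in supernatant RNA (9.85% and 12.7% of all miRNAs). They did not change with every probe required, the software's own call, outlier spots kept, or odd or even spots only. The counts above the negative controls, also 0 and 4, stand beside 10.7% and 13% of all miRNAs at the 95th percentile. They held with the 99th percentile or the mean plus 3 SD as threshold. They also held with other summaries of spots and probes, and with 1 control alone. The positive and significant flag gave 2 in exosome RNA and 5 in supernatant RNA (26.3% and 27% of all miRNAs). The mean of the negative controls as threshold, an alternative added after the data were seen, also gave 2 and 5 (18.7% and 20.4%). The median limit of the log2 difference, exosome over supernatant, of the 4 detected markers was 3.52 as scaled. It was -1.47 without scaling, -1.22 with the 75th percentile over all probes, 3.77 with the median of shared miRNAs, -3.06 with the labelling controls and -1.39 with the hybridisation controls. It was 4.11 with normexp, 1.30 with the software's total signal or the deposited value table, and 2.37 with the lowest detected miRNA as the dim side. The count of 21 detected miRNAs with 4 guanines in a row was 19 with every probe required and 21 by the other rules. Of the 649 miRNAs without the run, 8.47% were called with every probe required and 10.8% by the software's own call. Above the 95th percentile of the negative controls 10.2% were, and by the positive and significant flag 24.7%. No paired analysis was possible because each fraction has 1 array. Signals of the undetected markers are readings below the threshold, not levels of RNA.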

Other observations

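Related marker lists, chosen with earlier results of these data known, held no further detected miRNA of muscle or blood cells. The 5 lists were other muscle, other leukocyte, platelet and other blood, liver and neuron. Of 6 other leukocyte names, 4 were on the array, and lists this small give coarse counts. Of the 16 array miRNAs in the 5 lists, 0 were detected in exosome RNA (9.85% of all miRNAs) and 0 in supernatant RNA (12.7%). Their signals ran from -3.51 to 3.78 in exosome RNA and from -4.60 to 2.35 in supernatant RNA, and none has 4 guanines in a row in its probe. Chosen after their values were seen, the muscle and leukocyte examples are miR-499, a miRNA of slow and cardiac muscle, at 1.28 ± 2.80 in exosome RNA and 0.73 ± 3.54 in supernatant RNA, and miR-146a, induced in activated leukocytes, at 0.54 ± 2.78 and 0.48 ± 3.07. Of 7 epithelial markers, also without the run, 5 were detected in exosome RNA (9.85% of all miRNAs) and 3 in supernatant RNA (12.7%). Of these epithelial markers 3 were detected on both arrays, 2 in exosome RNA only and 2 on neither. The brightest on each array were miR-200c (343 in exosome RNA and 44.7 in supernatant RNA) and miR-141 (302 and 181).

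Of the 17 miRNAs with 4 guanines in the probe that are not markers, the 3 of lowest GC content (31.8%, 44.4% and 50%) are shown, because the run makes up much of the G and C in their probes.
bta-miR-365-3p: ataaggatttttaGGGGcatta
bta-miR-129-3p: atgctttttGGGGtaagg
bta-miR-3601: tcGGGGatcatcatgt
miR-365-3p read 7.58 ± 3.63 in exosome RNA and 120 ± 9.07 in supernatant RNA. miR-129-3p read -0.63 ± 2.68 and 19.3 ± 2.94, and miR-3601 read -2.15 ± 2.11 and 31.5 ± 5.60. None of the 3 was detected in exosome RNA, nor were miR-133a, miR-133b, miR-486 and miR-223 (9.85% of all miRNAs were). The 3 do not stand for all 17, of which 5 were detected in exosome RNA.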
